A study of Mus musculus with 9 samples.

Results

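Expression of 9 potassium channel genes was examined in septum and right ventricle of adult mouse hearts that lacked Ezh2 in cells of the anterior heart field lineage and in wild-type hearts. The 9 genes were chosen by name: the inward rectifier pore genes Kcnj2, Kcnj3, Kcnj5, Kcnj8, Kcnj11 and Kcnj12, the sulfonylurea receptor genes Abcc8 and Abcc9, and Kcnk3, a background potassium channel. They are 9 of 19935 genes that could each be read at a probe set with a single gene symbol, and each of the 9 has exactly 1 such probe set on the array.

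Inward rectifier channels pass potassium more easily into the cell than out of it, and in cardiac muscle they hold the resting membrane near the potassium equilibrium potential and shape the end of the action potential. They fall into classes by what opens them. Kcnj2 and Kcnj12 encode the constitutively open pores of the current IK1, which sets the resting potential of ventricular muscle. Kcnj3 and Kcnj5 encode the pores of the acetylcholine-gated current IKACh, opened by G protein beta and gamma subunits when vagal acetylcholine binds the M2 muscarinic receptor, and best known from atrium and nodes. Kcnj11 and Kcnj8 encode the pores of ATP-sensitive channels, which open when the energy state of the cell drops and which assemble with the receptors encoded by Abcc9 and Abcc8. Kcnk3 encodes TASK-1, a tandem-pore channel that carries a leak current.

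RNA was hybridised to 1 Affymetrix array per sample, 9 in all. The 5 wild-type hearts are labelled Ezh2f/f in the genotype field, although their titles read f/wt, and the labels do not settle which holds. The 4 Ezh2-deficient hearts are labelled Ezh2f/f;Mef2cAHF::Cre, so that floxed Ezh2 alleles were combined with a Cre transgene under an anterior heart field enhancer taken from Mef2c. This element acts in embryonic progenitors of the right ventricle, septum and outflow tract, and cells of other lineages in the tissue keep Ezh2. All mice were adult and of a mixed background of C57BL/6, and wild-type hearts carried no Cre. An effect of Cre itself therefore cannot be told apart from loss of Ezh2.

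The median log2 value of an array was 7.19 to 7.25, and no array repeated another (highest Pearson r between 2 arrays 0.9973). Wild-type arrays 4 and 5 stood away from the rest along the first principal component (30.7% of the variance). By Xist and Y-linked genes, 1 wild-type heart (array 4) and 2 Ezh2-deficient hearts (arrays 1 and 3) were from females. The letter e or x in the titles, with unstated meaning, marks 2 and 2 arrays (e) or 3 and 2 arrays (x) of the wild-type and Ezh2-deficient groups. For Ezh2 the mean was 8.73 ± 0.12 (SD, n = 5) in wild-type and 8.88 ± 0.11 (SD, n = 4) in Ezh2-deficient hearts (difference 0.15, limma adjusted p = 0.485). Where its probes lie in the transcript is not known, so it does not check the genotype labels. The ventricular cardiomyocyte markers, 8 of 8 measured, all read between 12.4 and 14.4. Their summed level lay between 16.81 and 16.87 in wild-type and between 16.73 and 16.83 in Ezh2-deficient hearts (log2 of the summed linear values). These values show cardiac muscle but do not mark septum or right ventricle, and the purity of the dissection was not tested.

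All 9 channel genes averaged lower in the Ezh2-deficient group, but none of the differences passed the test over the whole array. By limma 0 of 9 passed at an adjusted p of 0.05, against 0.0347% of all 28815 probe sets (0.0104% lower and 0.0243% higher). The median difference of the 9 genes was -0.18 on the log2 scale, against -0.0056 over all probe sets, and 52.9% of all probe sets had a lower mean. At an unadjusted p under 0.05, 4 of the 9 were lower (Kcnj5, Kcnj11, Kcnj2 and Abcc9) and 0 higher, where 5.45% of all probe sets were lower and 5.23% higher by that measure. In Kcnj5, Kcnj2 and Kcnj11 every Ezh2-deficient heart read below every wild-type heart, whereas such a separation was found at 1.91% of all probe sets in the lower and 1.79% in the higher direction. Among the 11335 probe sets at least as bright as the dimmest of the 9 genes, the corresponding shares were 54.2% with a lower mean, 9.14% lower at an unadjusted p under 0.05 and 3.93% with separated groups. As the tissue was not sorted, fewer cells of a type and less RNA per cell cannot be told apart in any value given here.

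**Figure D1:**
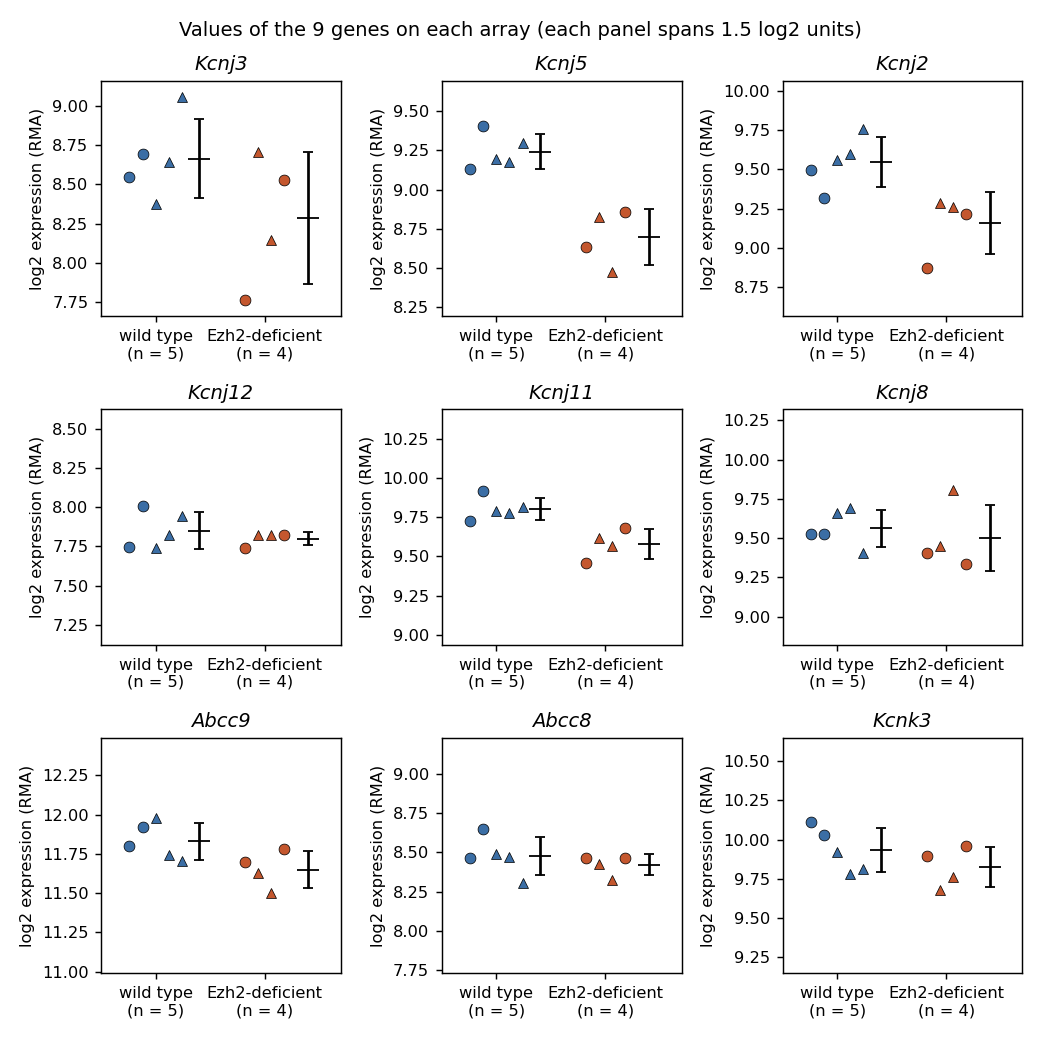
Log2 expression (RMA) of the 9 genes on each array, with 5 wild-type arrays in blue and 4 Ezh2-deficient arrays in orange; circles are arrays with title letter e, triangles those with letter x, and black bars are the group mean ± SD. Every panel spans 1.5 log2 units. The groups are separated for Kcnj5, Kcnj2 and Kcnj11 and overlap for the other 6 genes.

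The upstream sequence was available in RefSeq's promoter table for 6 of the 9 genes, namely Kcnj2, Kcnj3, Kcnj5, Kcnj8, Kcnj12 and Abcc9. 3 windows follow, each the 250 bases before the annotated start, printed 5′ to 3′ on the gene's strand with every CpG dinucleotide in capitals, because Polycomb complexes are known to occupy CpG-rich promoters. Kcnj5 and Kcnj2 are shown as separated genes, and Kcnj8 as one whose groups overlapped. The arrays measure expression only, and Polycomb binding at these windows was not tested. The Kcnj5 window is chr9:32344345-32344594 (minus strand), that of Kcnj2 chr11:111065914-111066163 (plus strand) and that of Kcnj8 chr6:142571615-142571864 (minus strand), all in GRCm38.p6.
Kcnj5: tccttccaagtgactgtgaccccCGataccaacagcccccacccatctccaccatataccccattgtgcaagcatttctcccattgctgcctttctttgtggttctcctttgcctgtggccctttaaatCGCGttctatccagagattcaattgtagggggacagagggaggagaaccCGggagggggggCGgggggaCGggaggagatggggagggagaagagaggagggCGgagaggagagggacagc
Kcnj2: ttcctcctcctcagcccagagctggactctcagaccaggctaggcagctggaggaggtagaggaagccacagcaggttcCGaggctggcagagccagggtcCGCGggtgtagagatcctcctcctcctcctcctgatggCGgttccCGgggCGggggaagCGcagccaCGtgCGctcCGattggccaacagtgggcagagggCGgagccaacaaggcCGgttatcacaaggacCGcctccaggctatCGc
Kcnj8: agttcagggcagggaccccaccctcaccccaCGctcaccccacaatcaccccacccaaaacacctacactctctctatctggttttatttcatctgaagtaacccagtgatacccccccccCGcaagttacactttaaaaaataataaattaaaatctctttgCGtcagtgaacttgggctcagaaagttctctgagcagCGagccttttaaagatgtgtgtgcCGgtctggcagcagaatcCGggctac

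The Kcnj2 window holds 14 CpG dinucleotides, the Kcnj5 window 7 and the Kcnj8 window 6, where the median of all 32841 windows in the table is 6. The observed over expected CpG ratio was 0.52 for Kcnj2, 0.34 for Kcnj5 and 0.43 for Kcnj8, against a median of 0.37, which puts them at the percentiles 60.9, 46.7 and 54.8 of all windows. Of the other genes, Abcc9 had a ratio of 0.46, Kcnj3 0.33 and Kcnj12 0.21. Letters were also searched on both strands. The GC box GGGCGG occurred 2 times in Kcnj5, 2 times in Kcnj2 and 1 time in Abcc9, and was present in 32.8% of all windows. The sequence CACGTG, a form of the E-box CANNTG, occurred 1 time in Kcnj2 and in 6.02% of windows; CANNTG itself was found in all 6 and in 66.2% of windows. CCAAT occurred 1 time each in Kcnj2 and Kcnj3 and in 33.9% of windows. The letters AGATAA, a single form of the GATA motif, had 0 matches in the 6 windows and were present in 9.99% of all windows. Other forms were not counted, and windows printed above hold some. On the other strand Kcnj2 has TGATAA and Kcnj8 has AGATAG. The TATA box TATAAA (12.4% of all windows), the MEF2 motif (2.92%) and the CArG box (1.47%) also had 0 matches in the 6. A match describes letters only.

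Of the acetylcholine-gated pores, Kcnj5 showed the largest difference of the 9 genes. It read 9.13, 9.41, 9.19, 9.17 and 9.30 in wild-type arrays 1 to 5. In Ezh2-deficient arrays 1 to 4 it read 8.64, 8.83, 8.48 and 8.86. The groups were separated by 0.27 on the log2 scale, between wild-type array 1 and Ezh2-deficient array 4. Kcnj5, whose upstream window holds 7 CpG dinucleotides, encodes Kir3.4 (GIRK4), which forms channels with Kir3.1 or alone. Its mean was 9.24 ± 0.11 (SD, n = 5) in wild-type and 8.70 ± 0.18 (SD, n = 4) in Ezh2-deficient hearts, a level at 68.7% of wild type. The difference was -0.54 (SE 0.09, 95% interval -0.74 to -0.34), with a limma unadjusted p = 0.000117 and an adjusted p = 0.102, so that it missed the threshold while ranking at place 33 of 28815 probe sets by p. An exact two-sided permutation test over the hearts gave p = 0.00794, the smallest that 126 assignments allow. By title letter the difference was -0.52 (e) and -0.57 (x). Over 22 other settings it ran from -0.59 to -0.47, and its adjusted p from 0.0514 (array weights) to 0.651 (letter e alone).

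Kcnj3 encodes Kir3.1 (GIRK1), the pore subunit that needs a partner such as Kir3.4 to reach the membrane. It read 8.55, 8.69, 8.38, 8.64 and 9.05 in wild-type arrays 1 to 5. In Ezh2-deficient arrays 1 to 4 it read 7.76, 8.71, 8.15 and 8.53. The groups overlapped: Ezh2-deficient array 2 read above 4 of the 5 wild-type arrays. The difference of -0.38 (SE 0.19, 95% interval -0.81 to 0.050, limma adjusted p = 0.523; exact permutation p = 0.159) had the widest error of the 9 genes, and was -0.48 in arrays of letter e and -0.26 in those of letter x. It was -0.20 without Ezh2-deficient array 1, and -0.25 with the mean of Y-linked genes as a covariate.

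Of the atrial muscle markers, Myl4 and Myl7 varied widely between the arrays, and Kcnj3 was low on the arrays where they and Sln were low. The others varied less: the SD among wild-type hearts was 1.56 for Myl4 and 1.69 for Myl7, but 0.46 for Bmp10 and 0.42 for Sln. It was 0.26 for Nppa, 0.22 for Stard10, 0.11 for Nr2f2 and 0.08 for Tbx5. All 8 atrial markers listed were measured, and their summed level lay between 12.6 and 13.7 in wild-type and between 13.2 and 14.4 in Ezh2-deficient hearts. That sum is dominated by Nppa, which is also a gene of stressed ventricle (difference 0.86, limma adjusted p = 0.222). The mean of Myl4, Myl7 and Sln, 3 of the 8 markers chosen after their values were seen, was 7.25 in wild-type array 3, 8.14 in Ezh2-deficient array 1 and 8.97 in Ezh2-deficient array 3, and lay between 9.77 and 10.7 in the other 6. The 3 arrays low in these markers held the 3 lowest values of Kcnj3. For Kcnj5, wild-type array 3, lowest in this mean, read 9.19, above all 4 Ezh2-deficient hearts. Within the Ezh2-deficient group, arrays 1 and 3, low in this mean, also held the 2 lowest Kcnj5 values (8.64 and 8.48, against 8.83 and 8.86). These 2 arrays were also the female hearts of the group, so sex and the marker mean cannot be told apart within it. The Kcnj5 difference was -0.49 (SE 0.08, limma adjusted p = 0.168) with the mean of Y-linked genes as a covariate. With the mean of Myl4, Myl7 and Sln as a covariate, a setting chosen after seeing the data, the difference was -0.39 (SE 0.13, limma unadjusted p = 0.0152, adjusted p = 0.411) for Kcnj3 and -0.55 (SE 0.08, adjusted p = 0.146) for Kcnj5. With the mean of all 8 markers in their place, also chosen after seeing the data, it was -0.42 (SE 0.14, limma unadjusted p = 0.0146, adjusted p = 0.407) for Kcnj3 and -0.55 (SE 0.09, adjusted p = 0.144) for Kcnj5. Over all 22 settings the adjusted p lay between 0.381 and 0.765 for Kcnj3.

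**Figure D2:**
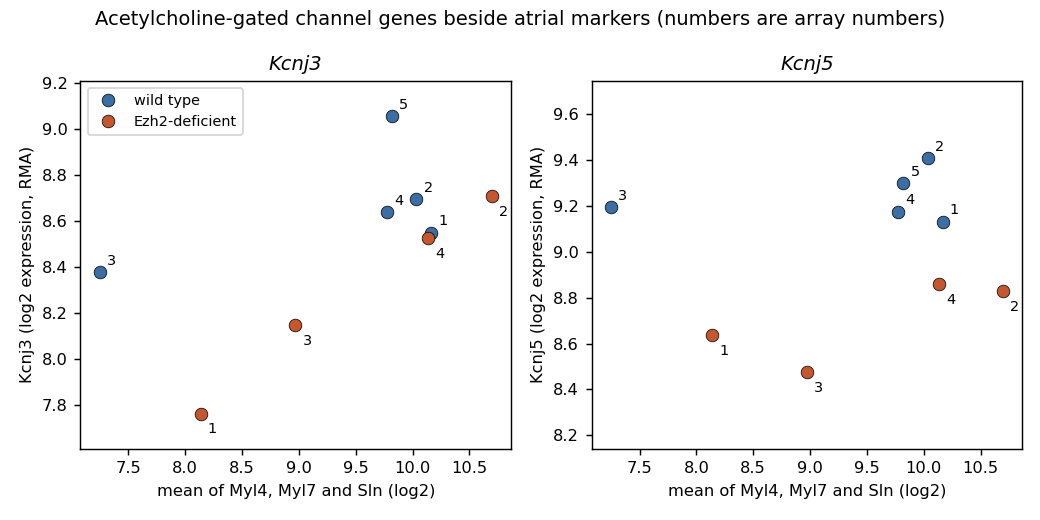
Kcnj3 (left) and Kcnj5 (right) on the vertical axis against the mean of the atrial markers Myl4, Myl7 and Sln on the horizontal axis, all in log2 expression, 1 point per array, numbered within its group (blue wild type, orange Ezh2-deficient). The 3 arrays with an atrial mean of 7.25, 8.14 and 8.97 hold the 3 lowest values of Kcnj3. In Kcnj5 the 2 groups are separated, and the 2 Ezh2-deficient arrays low in the atrial mean hold its lowest values. Those 2 arrays are also the female hearts of that group.

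The receptor and G proteins upstream of the acetylcholine-gated channel were read from a list of partner genes. Chrm2, the M2 muscarinic receptor, read 11.48 ± 0.11 (SD, n = 5) in wild-type and 11.28 ± 0.12 (SD, n = 4) in Ezh2-deficient hearts (difference -0.21, SE 0.07, limma adjusted p = 0.348). The groups met at 11.38, a value shared by 4 arrays. Gnai3, an inhibitory G protein alpha subunit, read between 9.61 and 9.94 in wild-type and between 9.94 and 10.13 in Ezh2-deficient hearts (difference 0.25, SE 0.07, limma adjusted p = 0.254). Rgs4, which speeds the shut-off of such G proteins, read between 8.61 and 9.02 in wild-type and between 9.04 and 9.13 in Ezh2-deficient hearts (difference 0.23, SE 0.08, limma adjusted p = 0.324). In both Gnai3 and Rgs4 the Ezh2-deficient hearts read above all wild-type hearts by a narrow margin, a separation found at 1.79% of all probe sets. Of the 23 receptor, G protein, scaffold and lipid kinase genes measured (24 listed), 0 passed by limma, and their median difference was 0.07. At an unadjusted p under 0.05, 5 were higher and 3 lower (5.23% and 5.45% of all probe sets). Of the 11335 probe sets at least as bright as the dimmest channel gene, 929 were higher and 1036 lower at that p. Of those 11335, 331 were separated in the higher direction.

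Of the pores of the resting current IK1, Kcnj2 was separated between the groups and Kcnj12 was not. Kcnj2, with 14 CpG dinucleotides in its upstream window, encodes Kir2.1, the main ventricular IK1 pore. It read 9.49, 9.32, 9.56, 9.60 and 9.76 in wild-type arrays 1 to 5. In Ezh2-deficient arrays 1 to 4 it read 8.87, 9.29, 9.26 and 9.22. The gap between the groups was 0.030, from wild-type array 2 to Ezh2-deficient array 2, and Ezh2-deficient array 1 read well below the other 3. The mean was 9.55 ± 0.16 (SD, n = 5) in wild-type and 9.16 ± 0.20 (SD, n = 4) in Ezh2-deficient hearts, a level at 76.5% of wild type. The difference was -0.39 (SE 0.10, 95% interval -0.62 to -0.15; limma unadjusted p = 0.00434, adjusted p = 0.243), and the exact permutation p was 0.0159. By title letter it was -0.36 for both. It was -0.29 without Ezh2-deficient array 1 and -0.30 without the outlying wild-type arrays 4 and 5.

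Kcnj12 encodes Kir2.2, which can join Kir2.1 in the same channel. It read between 7.74 and 8.01 in wild-type hearts, with a median of 7.82, and in Ezh2-deficient hearts it was 7.74 on array 1 and 7.82 on the other 3. Equal values of this kind arise in the deposited table, where the summary of a probe set can give several arrays the same number. The difference was -0.05 (SE 0.06, 95% interval -0.19 to 0.09, limma adjusted p = 0.805). The difference between Kcnj2 and Kcnj12 within an array averaged 1.69 log2 units in the wild-type and 1.36 in the Ezh2-deficient group, and its ranges overlapped (1.31 to 1.82 and 1.13 to 1.47). A difference of this kind between probe sets compares arrays, and says nothing on which pore is more abundant.

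Of the ATP-sensitive channel genes, the pair typical of ventricular muscle read lower than in wild type by a small amount. Kcnj11, which encodes the pore Kir6.2, read 9.73, 9.91, 9.79, 9.77 and 9.81 in wild-type arrays 1 to 5. In Ezh2-deficient arrays 1 to 4 it read 9.46, 9.62, 9.56 and 9.68. The groups were separated by 0.044, and the spread within each was the smallest of the 3 separated genes. The difference was -0.22 (SE 0.06, 95% interval -0.35 to -0.10), a level at 85.7% of wild type, with a limma unadjusted p = 0.00295, an adjusted p = 0.213 and an exact permutation p = 0.00794. By title letter it was -0.25 (e) and -0.20 (x).

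Abcc9 encodes SUR2, the sulfonylurea receptor whose isoforms serve both muscle and vessel channels. It read 11.80, 11.92, 11.98, 11.74 and 11.71 in wild-type arrays 1 to 5 and 11.70, 11.63, 11.50 and 11.78 in Ezh2-deficient arrays 1 to 4. Only Ezh2-deficient array 4 reached into the wild-type range. The difference was -0.18 (SE 0.07, 95% interval -0.35 to -0.01; limma unadjusted p = 0.0368, adjusted p = 0.428; exact permutation p = 0.0635). By title letter it was -0.12 (e) and -0.25 (x). Leaving out wild-type arrays 4 and 5 gave -0.25, and leaving out Ezh2-deficient array 3 gave -0.13 (limma unadjusted p = 0.110). The unadjusted p was also above 0.05 after further quantile normalization (0.123) and with the Y-linked genes as a covariate (0.0827). The single probe set does not separate the SUR2A and SUR2B isoforms.

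Kcnj8 and Abcc8, which are better known from other cells, showed little difference. Kcnj8 encodes Kir6.1, the pore of ATP-sensitive channels in smooth muscle, pericytes and endothelium. It read between 9.41 and 9.69 in wild-type hearts, with a median of 9.53. In the Ezh2-deficient hearts it was 9.41, 9.45, 9.80 and 9.34, and array 3 held the highest value of all 9. The difference was -0.06 (SE 0.10, 95% interval -0.28 to 0.16, limma adjusted p = 0.855), or by title letter -0.15 (e) and 0.04 (x). Abcc8 encodes SUR1, the receptor of pancreatic beta cells and of mouse atrial muscle. It read between 8.31 and 8.65 in wild-type and between 8.32 and 8.47 in Ezh2-deficient hearts (difference -0.06, SE 0.07, 95% interval -0.20 to 0.09, limma adjusted p = 0.804).

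Markers of the vessel wall and of other cells were read beside these genes. All 7 pericyte and 7 smooth muscle markers averaged higher in the Ezh2-deficient group, and 0 of the 14 had an unadjusted p under 0.05. The summed pericyte level lay between 12.73 and 13.03 in wild-type and between 12.99 and 13.22 in Ezh2-deficient hearts. For smooth muscle it lay between 12.9 and 13.5 in wild-type hearts and between 13.3 and 13.6 in the others. Endothelial and fibroblast markers, 8 of 8 measured in each list, also all had a higher mean, where 47.1% of all probe sets did. At an unadjusted p under 0.05, 3 and 5 of them were higher (5.23% of all probe sets). In each list 2 genes were separated (1.79% of all probe sets). Of the 11335 probe sets at least as bright as the dimmest channel gene, 5189 had a higher mean. Of those 11335, 929 were higher at that p and 331 were separated in the higher direction. The endothelial sum lay between 13.1 and 13.7 in wild-type and between 13.7 and 13.8 in Ezh2-deficient hearts, and the fibroblast sum between 13.9 and 14.3 and between 14.2 and 14.6. Ventricular cardiomyocyte markers had a lower mean in 7 of 8, with a median difference of -0.06, where 52.9% of all probe sets had a lower mean. The largest difference was that of Tnni3, cardiac troponin I (difference -0.17, SE 0.04, limma unadjusted p = 0.00406, adjusted p = 0.239; exact permutation p = 0.00794), the 1 of the 8 with an unadjusted p under 0.05 and with separated groups. Over all probe sets 5.45% were lower at that p and 1.91% were separated in the lower direction. Among those at least as bright as the dimmest of the 9 channel genes, the shares were 9.14% and 3.93%. Blood markers, 5 of 7 measured, summed to between 9.64 and 10.7 in wild-type and between 10.21 and 11.99 in Ezh2-deficient hearts. This sum was highest in Ezh2-deficient array 3, where the red cell genes Alas2 and Slc4a1 read 11.57 and 8.74. S100a8 and S100a9 differed between the groups by only -0.0003 and -0.018. Ezh2-deficient array 3 also held the highest Kcnj8 and the lowest Kcnj5 and Abcc9. Conduction system markers (6 of 7 measured) summed to between 9.66 and 9.97 in wild-type and between 9.68 and 9.86 in Ezh2-deficient hearts, and islet markers (4 of 5) and neuron and glia markers (5 of 6) never read above 6.45 and 7.98. The part of these cell types in the channel values was not tested.

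Kcnk3, the leak channel TASK-1, read 10.11, 10.03, 9.92, 9.78 and 9.81 in wild-type arrays 1 to 5 and 9.90, 9.68, 9.76 and 9.96 in Ezh2-deficient arrays 1 to 4. The groups overlapped broadly. The difference was -0.11 (SE 0.08, 95% interval -0.29 to 0.08, limma adjusted p = 0.677), or by title letter -0.14 (e) and -0.12 (x). Without wild-type arrays 4 and 5, which held the lowest wild-type values, it was -0.20. It was -0.06 without Ezh2-deficient array 2 and -0.06 without wild-type array 1. With the title letter as a block the Kcnk3 difference was -0.13 (SE 0.05, limma unadjusted p = 0.0221, adjusted p = 0.310). The unadjusted p was 0.228 in the fit by genotype only.

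**Figure D3:**
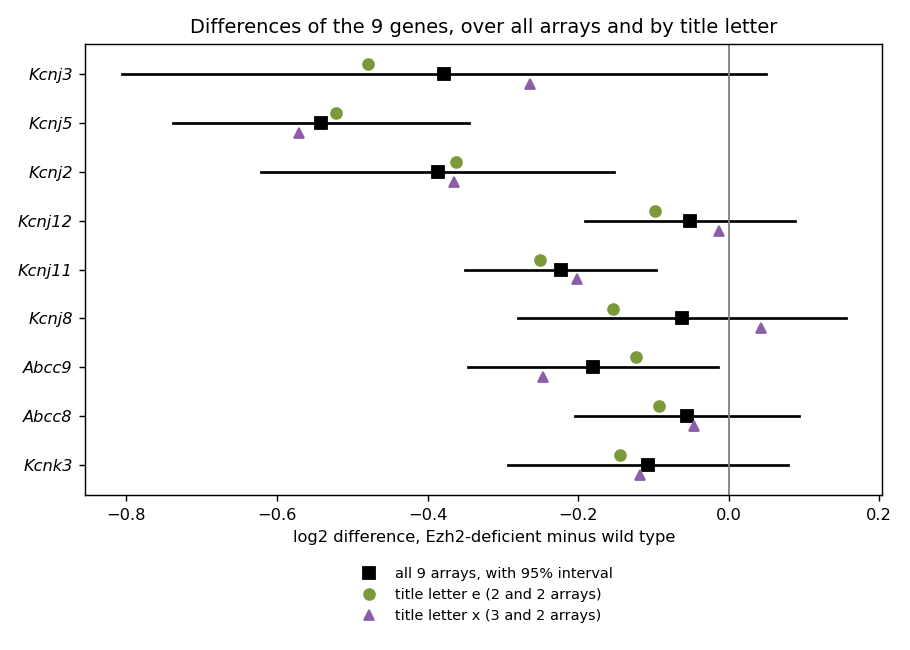
Log2 difference between Ezh2-deficient and wild-type hearts for the 9 genes. Black squares are the fit over all 9 arrays with its 95% interval, green circles the difference within title letter e and purple triangles that within letter x. The intervals of Kcnj5, Kcnj2, Kcnj11 and Abcc9 lie below 0, and letter x gives 0.04 for Kcnj8, the only value above 0.

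The remaining genes of both channel families were read from lists. All 9 other inward rectifier genes (Kcnj1, Kcnj4, Kcnj6, Kcnj9, Kcnj10, Kcnj13, Kcnj14, Kcnj15 and Kcnj16) were measured. By limma 0 of them passed and 0 had an unadjusted p under 0.05. Their differences ran from -0.06 to 0.06 with a median of 0.03, and 7 of 9 had a higher mean, against 47.1% of all probe sets. The smallest p belonged to Kcnj9 (difference 0.06, limma adjusted p = 0.687), Kcnj13 (0.04, 0.819) and Kcnj6 (0.03, 0.828), which encode Kir3.3, Kir7.1 and Kir3.2. Their means over all arrays lay between 5.38 and 7.26, whereas the 9 channel genes described above lay between 7.83 and 11.75, so most of the other genes read at or below the array medians. Of 13 other tandem-pore genes measured, 0 passed by limma and 0 had an unadjusted p under 0.05, with differences from -0.05 to 0.24 and a median of 0.02. A higher mean was found in 11 of the 13 (47.1% of all probe sets), and 1, Kcnk2, had separated groups in the higher direction (1.79% of all probe sets). Kcnk2, the stretch-sensitive channel TREK-1, read between 7.04 and 7.39 in wild-type and between 7.39 and 7.57 in Ezh2-deficient hearts (difference 0.16, SE 0.08, limma adjusted p = 0.501; exact permutation p = 0.0476). Kcnk6 differed by 0.24 (SE 0.12, adjusted p = 0.501) and Kcnk5 by 0.08 (SE 0.05, adjusted p = 0.609).

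Several of these genes are neighbours in the genome. In RefSeq's GRCm38.p6 annotation Kcnj11 and Abcc8 on chromosome 7 are each other's nearest protein-coding gene, as are Kcnj8 and Abcc9 on chromosome 6. The nearest protein-coding gene to Kcnj2 on chromosome 11 is Kcnj16, and to Kcnj5 on chromosome 9 it is Kcnj1. The neighbours of Kcnj2 and Kcnj5 had differences near 0: Kcnj16 differed by 0.0096 (SE 0.09, limma adjusted p = 0.985) and Kcnj1 by 0.05 (SE 0.08, adjusted p = 0.863). Both were named for their position after their values were seen, and both read below 5.91 on every array.

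The profiles over the 9 arrays were compared as a description, without a test. The closest pair among the 9 genes was Kcnj5 and Kcnj11, with a Pearson's r of 0.93 over the arrays and of 0.76 after each group's mean was taken off. By this measure Kcnj5 ranked at place 19 of 19934 genes for likeness to Kcnj11, and Kcnj11 at place 48 for likeness to Kcnj5. The 9 points share the difference between the groups and come from few hearts. Outside the 9 genes, the most alike gene was 9330133O14Rik for Kcnj5 (r = 0.97), Pnpla2 for Kcnj11 (0.97), Atp5o for Kcnj2 (0.96) and Sdha for Abcc9 (0.98). It was Cxcl13 for Kcnj3 (0.96), Chd7 for Kcnk3 (0.97), Psg20 for Abcc8 (0.98), Nkapl for Kcnj8 (0.93) and Prl8a6 for Kcnj12 (0.91). Each is the highest of about 19934 values over only 9 arrays. All 9 genes had such a match at 0.91 or above, so a high r of this kind does not set a gene apart. Kcnj8 did not follow its receptor partner Abcc9 (r = -0.14), and its highest value among the other 8 genes was 0.25, with Kcnj2.

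The genotype difference was set against the title letter in 1 model. By limma's interaction term 0 of the 9 genes differed in their genotype difference between letters e and x at an adjusted p of 0.05, and 0 of the 9 had an unadjusted p under 0.05. The gap between the letters ran from -0.12 for Abcc9 to 0.21 for Kcnj3 (adjusted p = 0.833 and 0.903). Leaving out each array in turn kept the sign of all 9 differences.

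**Figure D4:**
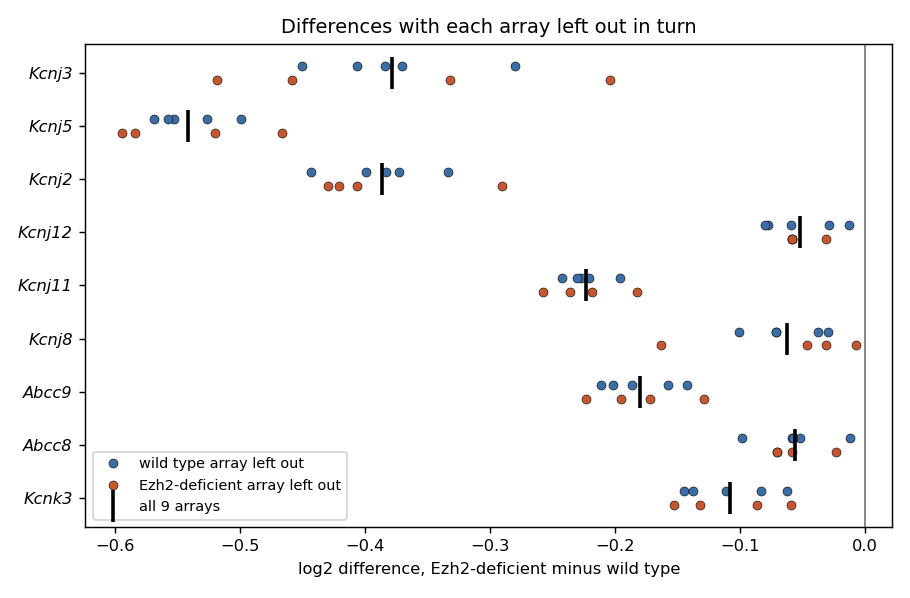
Log2 difference of the 9 genes with each of the 9 arrays left out in turn; blue points leave out a wild-type array, orange points an Ezh2-deficient array, and the black bar is the difference over all arrays. Kcnj5 stays between -0.59 and -0.47 and Kcnj11 between -0.26 and -0.18, while Kcnj3 ranges from -0.52 to -0.20.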

How the data were processed

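Total RNA isolated with TRIzol was labelled with biotin by standard Affymetrix methods, per the labels' protocols. The deposited values are log2 expression per probe set and array; per the submitters' processing notes the authors used RMA in Affymetrix Power Tools, with the version not given in the sources used here. The log2 scale was inferred from the range (2.18 to 15.0). Other columns of per-sample values numbered 0, and there were no detection calls. Gene names came from the platform annotation, and symbols were updated through gene identifiers in a RefSeq table (21780 of 28815 probe sets had 1 symbol, of which 21689 matched). Where a gene had several single-symbol probe sets, that of highest overall mean was read.

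Differences are Ezh2-deficient minus wild type, fitted with limma 3.58.1 (R 4.3.3; lmFit and eBayes, genotype only, two-sided) with Benjamini-Hochberg adjustment over the 28815 probe sets. At the median standard error of 0.0674 a difference of 0.528 was needed to pass, and the number of arrays limits the precision. Exact permutation tests ran over all 126 assignments. The fit was tested on simulated data. Replicates are numbered in sample order and treated as separate mice. The genes, lists and tests were chosen with earlier results of these data known. Genes outside the 9 were named by rule: up to 3 per list with the smallest p, and the most alike gene of each. Alternatives were other scalings, dim probe sets left out, the title letter or Y-linked genes in the fit, each letter alone, array weights, eBayes with trend, averaged probe sets and each array left out; those without wild-type arrays 4 and 5 and with 3 or all 8 atrial markers as a covariate were added after seeing the data. No protein sequences were used here.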

Additional observations from a re-analysis of the deposited data

Results flagged for a closer look

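In each group the highest or lowest array was compared with its nearest neighbour for the 9 genes, 18 sets in all; chance marks about 1 in 20 such sets, and 2 were marked. Kcnj2 on Ezh2-deficient array 1 read 8.869, while the other 3 Ezh2-deficient arrays lay between 9.218 and 9.287, so that the gap made up 0.835 of the group's range. Without that array the difference of Kcnj2 was -0.29 (limma adjusted p = 0.418, against 0.127 to 0.679 over all settings), and the groups stayed separated. The same array held the lowest Kcnj3 and Kcnj11 values. Kcnj12 on the same array read 7.737, while the other 3 shared the value 7.82, so that the mark rests on equal values in the deposited table and a distance of under 0.1.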

How the results depend on the processing

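Over 22 settings and 9 genes, 197 of 198 differences kept their sign and stayed outside the threshold; the exception was Kcnj8 within title letter x alone, at 0.0425. Leaving out dim probe sets and eBayes with trend bear on the p alone and cannot change a difference. The same holds for averaged probe sets, as each gene had 1 probe set. The kept signs in those settings were therefore fixed in advance. No setting brought any of the 9 genes past the threshold. The number of the 9 with a lower mean was 9 in all settings but letter x alone (8), and the number lower at an unadjusted p under 0.05 was 2 within letter e alone and 3 to 5 elsewhere. Groups were separated in the lower direction for 7 of the 9 within letter e alone and 5 within letter x alone, where fewer arrays separate more easily, and for 3 or 4 when each array was left out. Over all probe sets 10 passed. The count was 17 with arrays centred on medians, with dim probe sets left out and with the letter as a block. It was 37 with array weights, 3 with the Y-linked covariate, and 5 with either atrial covariate or without wild-type arrays 4 and 5. Within either letter alone it was 0, and without 1 array it ran from 3 to 15. The cause of these changes was not tested. The mean array percentile of Kcnj12, the dimmest of the 9, was 60.7 among all probe sets and 57.7 among genes at 1 probe set each. No paired analysis was possible because the labels give no replicate numbers that pair hearts across the groups. Without detection calls, values near the array medians cannot be told from background.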
